A study of Mus musculus with 18 samples.

Results

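The tendon-like cells of embryonic skin at E18.5 were 542 of the 9052 cells that passed the filters in the skin library, a share of 5.99% (exact binomial 95% interval 5.51 to 6.50), and 133710 cells passed the same filters over all 18 libraries of the series. They were chosen by the counts themselves. A cell was a member when it had at least 500 detected genes, under 20% mitochondrial unique molecular identifiers (UMIs, each standing for 1 captured transcript), no Epcam UMI, and 3 or more UMIs in all of Thbs4, Cilp and Scx. The comparison cells were the 7999 other cells of the library without Epcam that had at least 1 Col1a1 UMI and a sum under 3. The library was the skin lying next to the mammary rudiments of C57BL/6 embryos at E18.5 that carried an Lgr5-GFP reporter, pooled over female embryos of several dams. GEO's label calls it adjacent epidermis. Col1a1, the main collagen gene of fibroblasts, was found in 8541 of the 8542 cells without Epcam. It was also found in 9050 of all 9052 filtered cells, and in 71 of the 71 keratinocytes described below. Their median was 12 Col1a1 UMIs, against 46 in the comparison cells. A single Col1a1 UMI thus does not mark a fibroblast here, and the Col1a1 limit left out almost no cells. The skin cells were sorted as negative for erythroid, endothelial and white blood cell markers and low for CD24, and were captured alongside the E18.5 mammary library with 10x Chromium 3′ chemistry. No other library was made of skin, so the members and the comparison cells came from 1 library and no test between them was possible. Intervals on counts, ratios and shares cover counting error only, since cells of 1 library are not replicates.

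Tendon is a dense tissue of parallel type I collagen fibrils that ties muscle to bone, and its fibroblasts are called tenocytes. Scx, a basic helix-loop-helix transcription factor, marks their progenitors in the embryo, and Tnmd, a transmembrane glycoprotein downstream of it, marks their maturation. Thbs4 is a matrix thrombospondin abundant in tendon and at its junction with muscle, Cilp is a matrix protein of cartilage and tendon, and Chodl is a C-type lectin of the cell membrane. In the skin, related fibroblasts lie in the deep fascia and around the thin muscle sheet below the dermis.

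Depth did not set the members far apart. They held a median of 5841.5 UMIs per cell (857 to 21221) and 1975 genes, against 5128 UMIs and 1823 genes in the comparison cells, with median mitochondrial shares of 1.90% and 1.98%. The members' UMIs summed to 3386476 and the comparison cells' to 43580457. Background was read in 71 keratinocytes of the same library (at least 1 Epcam UMI and 10 UMIs of Krt5 and Krt14), whose median depth was 8241 UMIs. All 542 members held Col1a1. A further 26 cells met the sum of 3 but held Epcam and were left out. Of the members' barcodes, 64 also occurred in some other library, at most 10 in any single one, and those barcodes carried 1 UMI of the rule's genes there in all.

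Among the rule's genes, Thbs4 carried most members. It was detected in 526 members, with a lowest, median and highest value of 0, 4 and 29 UMIs per cell. Scx was detected in 305 members, at up to 12 UMIs, and Cilp in 279, at up to 10, each with a median of 1. All 3 genes were found together in 185 members (34.1%), while 149 members (27.5%) held Thbs4 and neither of the others. Thbs4 was the leading gene of the sum in 438 members, Scx in 46 and Cilp in 24, with 34 ties. These values selected the cells and are a description only. The median sum was 5 and the highest 42.

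Each gene of the rule was also followed in cells chosen by the other 2. The 204 cells with 3 or more UMIs of Cilp and Scx held Thbs4 at 1325 CPM (counts scaled to a total of 1000000 UMIs), against 51.3 CPM in the 8337 remaining Col1a1-expressing cells, and 188 of them had a Thbs4 UMI. Cilp stood at 185 CPM in the 497 cells chosen by Thbs4 and Scx and at 6.27 CPM in the rest. Scx stood at 229 CPM in the 479 cells chosen by Thbs4 and Cilp and at 8.29 CPM in the rest. So the 3 genes were found in overlapping sets of cells, although Cilp reached only 234 of those 497 cells and Scx 242 of those 479.

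No gap separated members from the cells just outside the limit. There were 135 members at a sum of exactly 3 and 257 cells at exactly 2. Tnmd, which the rule did not use, stood at 311 CPM at a sum of 3, 165 CPM at 2, 47.5 CPM at 1 and 15.9 CPM at 0. Chodl stood at 251, 149, 75.6 and 28.5 CPM in the same order. At a sum of 10 or more (156 cells) Tnmd reached 780 CPM and Chodl 1101 CPM. Ptx4, of the pentraxin family, and Col22a1, a collagen of tissue junctions that includes the muscle-tendon junction, were still low at a sum of 4 (14.6 and 5.48 CPM) and stood at 182 and 85.3 CPM at 10 or more. Clec3b, the gene of tetranectin, stood at 303, 345, 375 and 396 CPM at sums of 0, 1, 2 and 3, at 215 CPM at 4 and at 69.8 CPM at 10 or more. The plot of levels by sum shows these values on either side of the limit.

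**Figure D1:**
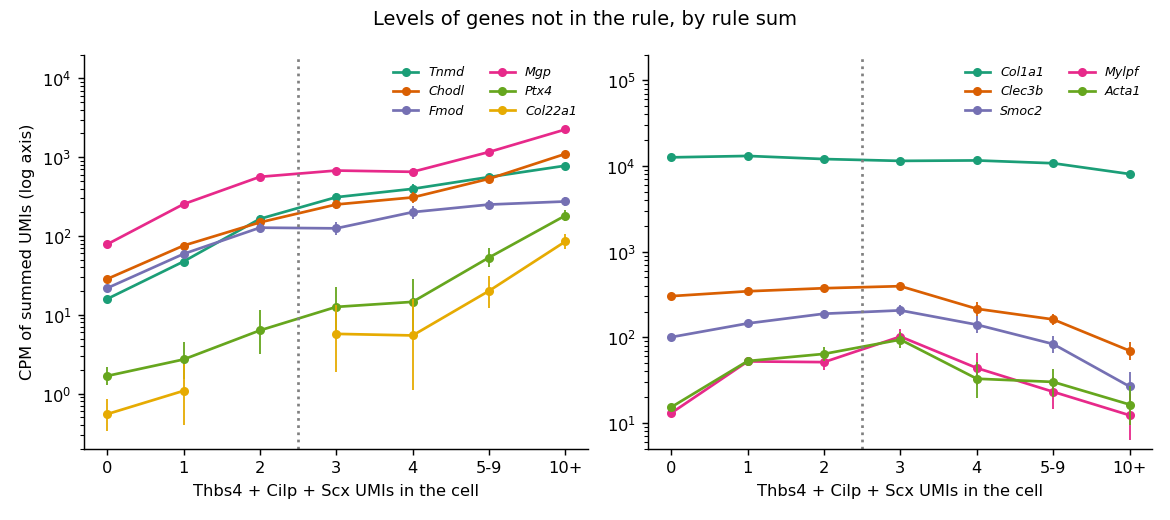
CPM of summed UMIs (log axis) of 11 genes outside the rule against the cell's summed UMIs of Thbs4, Cilp and Scx, for cells without Epcam and with Col1a1; bars are 95% counting intervals, the dotted line is the limit, and a value is missing where no UMI was found. Tnmd climbs from 15.9 CPM at a sum of 0 to 780 CPM at 10 or more with no step at the limit, while Clec3b falls past a sum of 3.

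Tnmd and Chodl were the markers that the rule left unused. Tnmd was detected in 290 members (53.5%) and 627 comparison cells (7.84%), with a lowest, median and highest value of 0, 1 and 43 UMIs in members and 0, 0 and 26 in comparison cells. Its level was 532 CPM in members and 25.8 CPM in comparison cells, a ratio of 20.6 (95% counting interval 19.1 to 22.2). Chodl was detected in 422 members (77.9%), with 0, 2 and 21 UMIs, and in 1005 comparison cells (12.6%), with 0, 0 and 16. It stood at 587 and 39.3 CPM, a ratio of 14.95 (14.0 to 16.0). The ranges overlapped for both genes, since each was at 0 in part of the members. In keratinocytes, which should lack them, 5 of 71 cells (7.04%) held Tnmd and 9 of 71 (12.7%) held Chodl, at a greater depth than the comparison cells, and their levels were 11.99 and 14.99 CPM. At a common depth of 2000 UMIs per cell, with 12 members and 463 comparison cells too shallow to enter, the expected shares were 41.6%, 3.59% and 1.96% for Tnmd in members, comparison cells and keratinocytes and 57.1%, 5.85% and 3.25% for Chodl, so at 1 depth the comparison cells lay above the keratinocytes for both genes. Outside the rule, 77 comparison cells held 3 or more Tnmd UMIs and 146 held 3 or more Chodl UMIs.

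The DNA before the start sites of these markers is shown because Scx acts through E-boxes, the 6-base motif CANNTG that reads alike on both strands. The sequences are RefSeq promoters of build GRCm38.p6, from 250 bases before the annotated start up to it, 5′ to 3′ on the gene's strand, with each E-box in capitals. Chodl lies on the plus strand at chr16:78930698-78930947 and Tnmd on the plus strand at chrX:133850758-133851007.
Chodl: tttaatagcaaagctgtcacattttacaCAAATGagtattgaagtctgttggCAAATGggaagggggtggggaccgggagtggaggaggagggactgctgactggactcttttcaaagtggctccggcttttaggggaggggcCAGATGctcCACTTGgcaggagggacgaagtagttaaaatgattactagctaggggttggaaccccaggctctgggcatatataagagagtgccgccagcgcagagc
Tnmd: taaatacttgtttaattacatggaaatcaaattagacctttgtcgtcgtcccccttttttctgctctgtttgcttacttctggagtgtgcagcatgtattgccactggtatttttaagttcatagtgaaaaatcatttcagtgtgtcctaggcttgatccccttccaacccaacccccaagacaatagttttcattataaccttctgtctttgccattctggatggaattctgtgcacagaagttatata
The Chodl window held 4 E-boxes, 222, 198, 107 and 98 bases before the start, and the Tnmd window held none. Cilp held 3 and Thbs4 1 in windows of the same length. Of 32817 such windows 66.2% held at least 1 E-box and 3.84% held 4 or more, so the motif is common, and a match is a run of letters and no measured site.

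Of the 12 tendon genes listed beside the rule, 7 passed the filter on low values (a mean of 10 CPM over the 2 groups). Calls here mean a difference of 2-fold or more after adding 5 CPM to both levels, and they carry no test. Tnmd, Chodl, Fmod and Tnc were higher and none was lower, against 1.76% of the 7550 genes counted that were higher and 2.29% that were lower. Tnmd and Chodl had already been named as markers of these cells, with earlier results of these data known. Fmod and Tnc were the higher genes beside them, and the list count is no independent support. Fmod, a small proteoglycan that shapes collagen fibrils, stood at 217 and 30.8 CPM, a ratio of 7.05 (6.44 to 7.72). Tnc, the matrix protein tenascin-C, stood at 145 and 38.6 CPM, a ratio of 3.76 (3.39 to 4.16). Col12a1 was at 460 and 262 CPM, Col14a1 at 315 and 374 CPM, and Egr1 at 1455 and 1595 CPM, all within 2-fold. In cluster 12, the group of members described further on, Kera (17.7 against 2.34 CPM) was also past 2-fold higher and Col14a1 (60.0 against 374 CPM) past 2-fold lower. Several other genes of the tendon programme were found in few members. Mkx, a homeobox factor of tendon, was found in 15 members (2.77%) at 4.72 CPM, Kera in 25 members at 8.56 CPM, and Comp, a thrombospondin of mature tendon and cartilage, in 1 member. The median log2 fold over all 12 listed genes was 0.73, beside -0.04 over all genes counted.

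**Figure D2:**
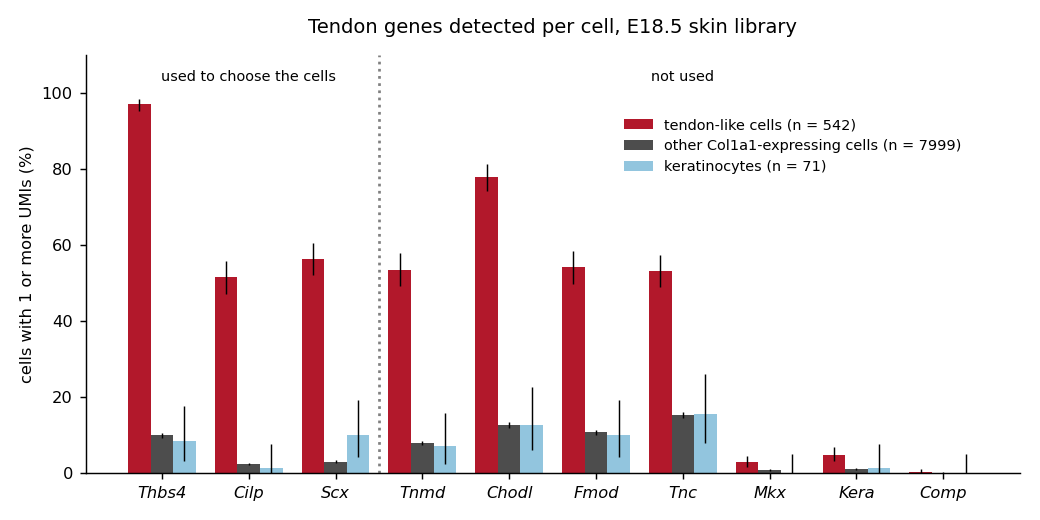
Share of cells with at least 1 UMI (%) of 10 tendon genes in tendon-like cells, other Col1a1-expressing cells and keratinocytes; bars are shares and lines exact binomial 95% intervals, with the rule's genes left of the dotted line. Chodl was found in 77.9% and Tnmd in 53.5% of members, near 12.6% and 7.84% in comparison cells, and Mkx, Kera and Comp in under 5% of members.

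The members did not form a single cluster. The filtered cells were grouped into 16 clusters on variable genes from which the markers, the tendon list and cell cycle genes had been removed. Cluster 12, led by Scx, Cilp, Ptx4, Thbs4, Chodl, Hsd11b1 and Col22a1, held 220 members (40.6%), which made up 93.2% of its 236 cells. Cluster 5, led by Sfrp4, Rxfp1, Meox1, Col8a2, Fmod, C1qtnf3, Tnmd and Npy, held 183 members (33.8%) among 747 cells. Cluster 7, led by Acta1, Mylpf, Myl1, Wfdc1 and Ebf2, held 75 (13.8%) among 501 cells. Cluster 9, led by cell cycle genes, held 41 (7.56%) among 466, and the other clusters held the few left. Of the 156 members with a sum of 10 or more, 130 lay in cluster 12, and of the 219 with 3 or 4, 26 did. Since the cells' own genes built the clusters, all levels by cluster are descriptions.

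Checked on markers that the rule left unused, the tendon label did not hold for the members of cluster 7, and Tnmd and Fmod were high in those of clusters 12, 5 and 9. Tnmd stood at 700 CPM in cluster 12 members, 680 CPM in cluster 5, 502 CPM in cluster 9 and 16.9 CPM in cluster 7, the last below the 25.8 CPM of the comparison cells. Fmod ran in a like way, at 243, 343, 121 and 9.39 CPM. Chodl stood at 1368, 300.1, 263 and 111 CPM in clusters 12, 5, 9 and 7, above the 39.3 CPM of the comparison cells in each. The 426 other cells of cluster 7 held Chodl at 141 CPM, above the cluster 7 members. The values that chose the cells also differed, and are given as a description only. Scx stood at 609, 107, 51.7 and 28.2 CPM, and all 3 rule genes were found together in 152 of the cluster 12 members, 24 in cluster 5, 3 in cluster 9 and 1 in cluster 7. The median sum was 12 in cluster 12, 4 in cluster 5, 3 in cluster 7 and 5 in cluster 9, and median depth was 4446, 6349, 6800 and 9324 UMIs. Depth thus moved with the clusters, and its part in these levels was not tested.

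Cluster 12 members carried a set of genes that were low in cluster 5 members. Ptx4 stood at 222 CPM in cluster 12 members, 9.79 CPM in cluster 5 members and 1.996 CPM in the comparison cells. Col22a1 was found in 66 of the 220 cells, at 104 CPM against 0.816 CPM in cluster 5 and 0.597 CPM in comparison cells. Hsd11b1, the enzyme that reactivates glucocorticoids, stood at 129 CPM against 2.45 CPM in cluster 5, and Chst5, a sulphotransferase of keratan sulphate chains, at 115 against 4.89 CPM. Nrgn, known from neurons as neurogranin, stood at 158 against 3.26 CPM, and Rgs16, a regulator of G-protein signalling, at 253 against 9.79 CPM. The 16 cells of cluster 12 outside the members held Ptx4 at 177 CPM and Chodl at 1564 CPM, with no Col22a1 UMI. Mgp, the matrix Gla protein that restrains calcification, was not low elsewhere, at 2540 CPM in cluster 12 members and 955, 423 and 532 CPM in those of clusters 5, 7 and 9. The cluster 12 members were lower in bulk collagen than the pooled comparison cells. Col1a1 stood at 6432 CPM and Col3a1 at 4810 CPM, against 12669 and 9758 CPM in the comparison cells. Dcn and Lum, the proteoglycans decorin and lumican, stood at 589 and 358 CPM against 2057 and 1157 CPM. This Col1a1 level was not particular to cluster 12. Over whole clusters Col1a1 ran from 2569 CPM in cluster 14 to 23984 CPM in cluster 4. Clusters 1, 10 and 13 stood at 7437, 6774 and 6156 CPM. No UMI of Mkx or Comp was found among the 1016820 UMIs of cluster 12 members, where 3 UMIs would have been 2.95 CPM.

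Within cluster 12, Tnmd varied from cell to cell while Chodl varied little with it. Tnmd was at 0 in 69 of the 220 members and at 3 or more UMIs in 100. Chodl stood at 1266 CPM in the former and 1385 CPM in the latter, Thbs4 at 1354 and 1871 CPM, Scx at 698 and 579 CPM, and Col22a1 at 105 and 107 CPM. Fmod and Ptx4 differed more, at 179 and 154 CPM without Tnmd and 306 and 256 CPM at 3 or more UMIs, and Mgp ran the other way, at 3469 and 1994 CPM. The median depth was 3923 UMIs without Tnmd and 5024 UMIs with it, and its part in the split was not tested.

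Cluster 5 members were matrix cells with a different set of secreted products, and only part of them held Tnmd. It was at 0 in 88 of the 183 members and at 3 or more UMIs in 78. Sfrp4 and Sfrp2, secreted WNT binding proteins, stood at 479 and 1479 CPM in cluster 5 members and at 9.83 and 112 CPM in cluster 12 members. Npy, the neuropeptide Y gene, stood at 528 against 14.8 CPM, and C1qtnf3, a secreted C1q family protein, at 961 against 188 CPM. Igfbp5 stood at 228 against 17.7 CPM, Tac1, a tachykinin precursor, at 149 against 6.88 CPM, and Col11a1, a minor fibrillar collagen that seeds fibrils, at 404 against 77.7 CPM. Col1a1 was at 14384 CPM. The 564 other cells of cluster 5 held Tnmd at 157 CPM, Fmod at 206 CPM and Mgp at 808 CPM, so a lower level of the same genes reached beyond the members.

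Thbs4 was the highest of the rule's genes in members of cluster 7, as in those of clusters 12, 5 and 9. Members of cluster 7 held it at 464 CPM, against 102 CPM in the 426 other cells of the cluster. The rule itself sets that gap, which is a description only. Clec3b stood at 688 CPM, Smoc2, a secreted calcium-binding matrix protein, at 368 CPM, Igf1 at 898 CPM and Entpd2, an enzyme that breaks down extracellular nucleotides, at 190 CPM, against 46.2, 19.7, 92.4 and 6.88 CPM in cluster 12 members. The same cells held transcripts of contractile muscle proteins, Mylpf at 220 CPM and Acta1 at 195 CPM, which stood at 202 and 247 CPM in the other cells of the cluster. Over all members the 18 skeletal muscle genes summed to 148 CPM and over comparison cells to 111 CPM, and none of the 4 that passed the filter was past 2-fold. In cluster 7 the list summed to 597 CPM in members and 688 CPM in the other cells, against 58.0, 52.2 and 113 CPM in members of clusters 12, 5 and 9. Tnnc2, of fast muscle troponin, stood at 69.5 CPM in cluster 7 members. Of the list, 4 genes were at 0 UMIs in all members, the factors Myod1 and Myf5 with Myh3 and Cdh15, while the factor Myog had 3 UMIs, all in cluster 7. The part of muscle RNA in the choice of these cells was not tested.

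**Figure D3:**
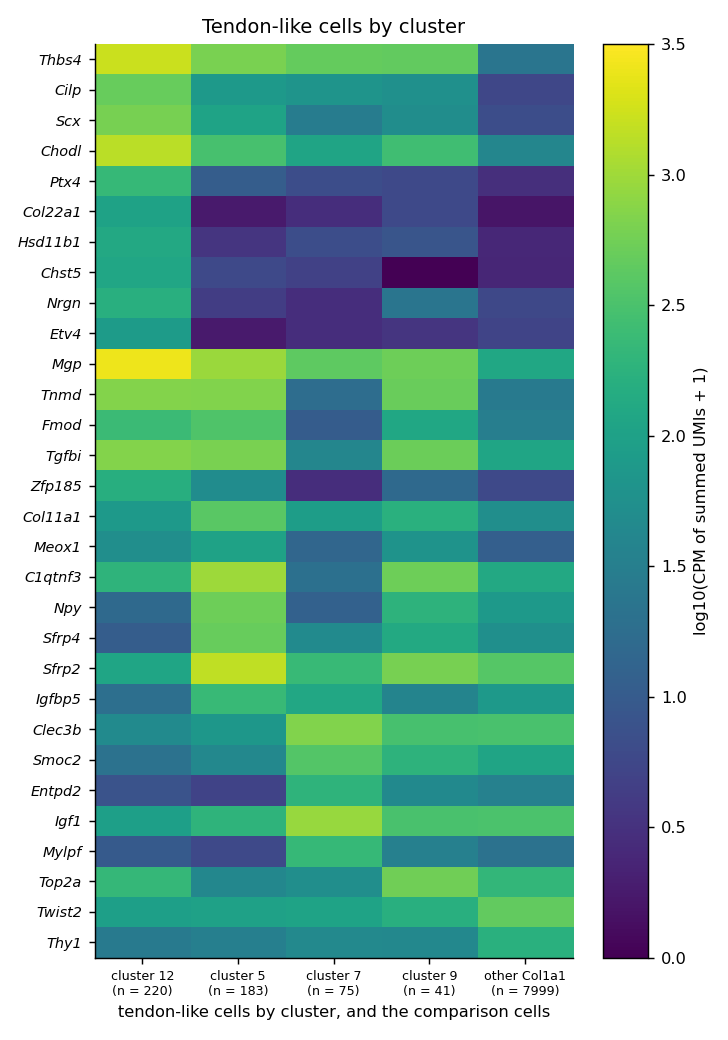
Levels of 30 genes, as log10(CPM of summed UMIs + 1), in tendon-like cells of clusters 12, 5, 7 and 9 and in the other Col1a1-expressing cells. Ptx4, Col22a1, Hsd11b1 and Chst5 are highest in cluster 12 among these columns, Npy, Sfrp4 and Sfrp2 in cluster 5, and Clec3b, Smoc2, Entpd2 and Mylpf in cluster 7, where Tnmd is as low as 16.9 CPM.

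Against the comparison cells, 133 genes were at least 2-fold higher in all members and 173 at least 2-fold lower. Mgp was detected in 484 members (89.3%), with a lowest, median and highest value of 0, 5 and 69 UMIs, and in 2035 comparison cells (25.4%). It stood at 1267 and 120 CPM, a ratio of 10.6 (10.1 to 10.997), and at 132 CPM in keratinocytes. Ptx4, at 73.5 and 1.996 CPM, had a ratio of 36.8 (28.7 to 47.6), and 0 of 71 keratinocytes held it, which allows a share of up to 5.06%. Tgfbi, an adhesive matrix protein induced by TGF-beta, stood at 531 and 112 CPM, a ratio of 4.72 (4.47 to 4.99). Abi3bp, a matrix protein, stood at 497 and 127 CPM, and Fibin at 488 and 124 CPM. Also leading were 2 transmembrane collagens, Col13a1, at 65.6 and 11.1 CPM, Col25a1, at 62.3 and 13.0 CPM, and 2 mesodermal homeobox genes, Meox1, at 63.2 and 10.4 CPM, and Meox2, at 56.7 and 13.2 CPM. The other leading genes were Zfp185, Adh1, Angptl1 and Ssc5d, with log2 folds of 2.89, 2.18, 1.86 and 1.84, together with Fmod, Tnc, Col11a1, C1qtnf3 and Sfrp4. Some leading genes, Sfrp4 and C1qtnf3 among them, stood near or above the members' level in another fibroblast group, described further on.

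The clusters shared these genes unevenly. Of the 20 leading genes, 17 were at least 2-fold above the comparison cells in cluster 12 members, 18 in cluster 5, 15 in cluster 9 and 7 in cluster 7. The genes were picked over all members, of which clusters 12 and 5 held 40.6% and 33.8%. These counts therefore follow in part from the choice and are a description only. The exceptions in cluster 12 were Col11a1, C1qtnf3 and Sfrp4, the last below the comparison cells, at 9.83 CPM against 54.0. The 7 in cluster 7 members were Chodl, Mgp, Adh1, Fibin, Abi3bp, Angptl1 and Meox2. Of these, Mgp stood at 423 CPM in the members and 304 CPM in the other cells of cluster 7, and Chodl at 111 and 141 CPM, so both levels were also raised outside the members.

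The leading lower genes were those with the lowest fold among genes detected in at least 25% of the comparison cells. Twist2, a transcription factor of the dermis, stood at 112 CPM in members and 458 CPM in comparison cells, a ratio of 0.244 (0.220 to 0.2701). Ebf1 stood at 107 and 449 CPM and Zeb2 at 68.8 and 269 CPM, both transcription factors of mesenchyme. Thy1, a surface protein of fibroblasts, stood at 36.3 and 163 CPM. Igfbp3, which binds insulin-like growth factors, stood at 91.5 and 348 CPM, and Ccnd1, the gene of cyclin D1, at 37.8 and 148 CPM. The chemokine Cxcl14, the agouti gene (a), Gap43, Osr2 and Robo2 had log2 folds between -1.99 and -1.81. These genes were all at least 2-fold lower in the members of clusters 12, 5 and 9 alike. In cluster 7 the exception was Osr2, at 97.7 CPM against 176.

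**Figure D4:**
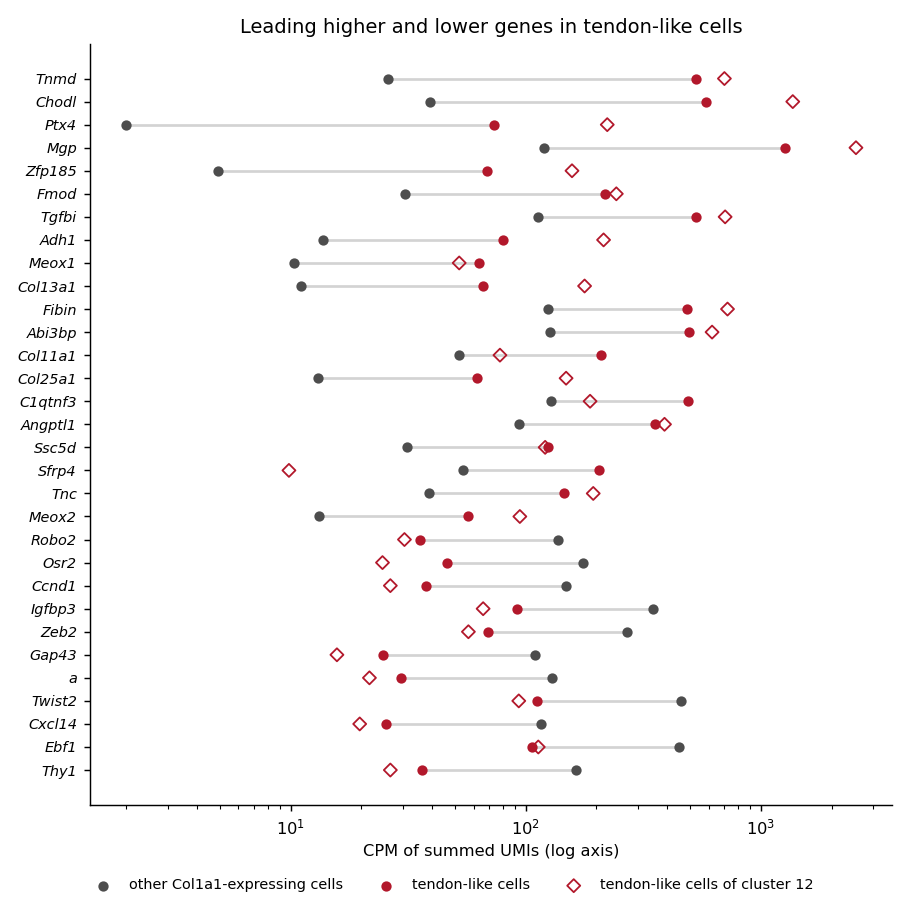
CPM of summed UMIs (log axis) of the leading higher and lower genes in tendon-like cells (filled red), other Col1a1-expressing cells (grey) and tendon-like cells of cluster 12 (open diamonds). Most diamonds lie beyond the red points, as for Ptx4 at 222 against 73.5 CPM, while Sfrp4, Col11a1 and C1qtnf3 lie nearer to or below the grey points.

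Matrix genes split by class. The counts here and in the lists that follow stand beside the 1.76% of all genes counted that were higher and the 2.29% that were lower. Among the 11 fibrillar collagens, 9 were counted, Col11a1 and Col24a1 were higher and none was lower, and Col1a1 stood at 10321 CPM in members. Cluster 12 members gave another count, with none of 8 counted higher and Col1a2, Col3a1, Col5a2 and Col5a3 lower, beside 3.98% of all genes higher and 5.71% lower there. Col11a1 stood at 404 CPM in cluster 5 and 77.7 CPM in cluster 12. Among the 18 fibril-associated and other collagens, Col8a2, Col13a1, Col18a1 and Col22a1 were higher and Col7a1, the anchoring fibril collagen of the skin, Col23a1 and Col26a1 were lower. In cluster 12, 4 of 17 counted were higher and 6 lower, the latter with Col6a1, Col6a2, Col14a1 and Col15a1. Of 23 genes of collagen synthesis and cross-linking, 18 were counted and 3 were higher. These were Plod2, which hydroxylates the telopeptide lysines used for cross-links, at 144 and 45.3 CPM, Loxl2, a lysyl oxidase, at 249.5 and 117 CPM, and P4ha3 at 68.2 and 22.6 CPM. Aspn, a proteoglycan that binds collagen, stood at 1095 and 464 CPM, and Bgn at 1623 and 820 CPM, the latter just under 2-fold. None of the 17 elastic fibre genes was higher over all members and Fbln2 was lower, at 57.9 and 149.9 CPM. In cluster 12, Emilin1 was higher and 5 were lower, Eln (elastin, 262 against 668 CPM), Fbln2, Efemp1, Mfap5 and Emilin2. Of the 20 matrix proteases and inhibitors, 15 were counted and Adamts5 alone was past 2-fold, at 16.5 and 63.9 CPM. In cluster 12, 2 were higher, the inhibitors Timp1 and Timp3, and 4 lower.

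Signalling genes also differed, and not in the same members. In the TGF-beta list, whose ligands induce Scx in tendon, 4 of 14 counted genes were higher and none was lower, with a median log2 fold of 0.33. The ligands Tgfb2, at 134 and 61.5 CPM, and Tgfb3, at 88.9 and 32.9 CPM, were among them, beside Tgfbi and Skil, at 106 and 49.5 CPM. Tgfb2 stood at 219 CPM in cluster 5 members, 91.5 CPM in cluster 12, under 2-fold, and 41.3 CPM in cluster 7, below the comparison cells. In the BMP and GDF list 2 of 14 counted genes were higher, the ligand Bmp2, at 88.9 and 27.6 CPM, and the antagonist Grem1, at 23.6 and 8.70 CPM. Grem1 stood at 57.04 CPM in cluster 12 and 8.97 CPM in cluster 5. Lower genes of the list were the ligands Bmp4, Bmp7 and Gdf10 and the target Id1, Id1 at 167 and 419 CPM. The FGF list had Etv4, a transcription factor that responds to FGF, higher and Fgf7, Fgf10 and Fgfr2 lower. Etv4 stood at 26.3 and 4.27 CPM, and at 82.6 CPM in cluster 12. There 4 of 11 counted genes were higher, Etv4 and the feedback inhibitors Spry1 (93.4 CPM), Spry4 (35.4 CPM) and Dusp6 (95.4 CPM). Fgf10 and Fgfr2 were lower there, beside 3.98% of all genes higher and 5.71% lower in cluster 12. In the WNT list 2 of 21 counted genes were higher, Sfrp4 and Dkk3, and 6 were lower, among them the nuclear effectors Lef1 (5.91 and 28.9 CPM) and Tcf7 (4.43 and 24.7 CPM). In cluster 12, 3 of 21 were higher, Wif1, Sfrp5 and Dkk3, and 12 were lower, among them Sfrp4 (9.83 against 54.0 CPM) and Sfrp2 (112 against 377 CPM), both higher in cluster 5 members than in the comparison cells. In the IGF list Igfbp7 was higher, at 399 and 127 CPM, and Igfbp2 and Igfbp3 were lower. In cluster 12, Igfbp4, Igfbp6 and Igfbp7 were higher and Igf1, Igfbp2, Igfbp3 and Igfbp5 lower.

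Few position and force-sensing genes were past 2-fold over all members. Of 27 HOX and limb genes 12 were counted, Pitx1 was higher at 46.4 and 16.1 CPM, and Tbx15 was lower at 3.54 and 25.4 CPM. In cluster 12, Pitx1 was higher and 4 of 11 counted were lower, Hoxa10, Hoxc8, Tbx15 and En1, the last at 3.93 against 30.6 CPM, beside 5.71% of all genes lower there. Piezo1, a stretch-gated channel, was the 1 higher gene of 12 counted in the adhesion and mechanosensing list, at 47.8 and 15.2 CPM, and stood at 98.3 CPM in cluster 12, where Itga8, an integrin subunit, was also higher, at 40.3 against 8.81 CPM. Of the tendon transcription factors beside Scx, 2 were counted and neither was past 2-fold, with Egr2 at 50.8 and 36.4 CPM.

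Cartilage and bone genes did not mark the members. Of 14 cartilage genes 2 were counted and neither was past 2-fold, Sox9 at 25.4 and 27.7 CPM, and Acan was at 3.54 CPM and Col2a1 at 1.18 CPM. In the bone list Ibsp was lower, at 3.84 and 25.8 CPM, and Sp7 was at 0.591 CPM. In the Schwann and neural crest list Mbp, the gene of myelin basic protein, was lower, at 16.8 and 89.0 CPM. Among 10 pericyte and smooth muscle genes Acta2 alone was higher, at 109 and 45.7 CPM, while Rgs5 was at 0.591 CPM. Acta2 stood at 244 CPM in cluster 5 members and 33.4 CPM in cluster 12. Immune genes summed to 2.07 CPM in members, endothelial genes to 37.8 CPM, erythroid genes to 6.79 CPM and keratinocyte genes to 62.3 CPM, beside 7501 CPM for the last list in keratinocytes. Ptprc, Myod1 and Cd3e were at 0 in the members. None of the 16 cell cycle genes and none of the 14 dissociation response genes was past 2-fold, nor any of the 4 sorting markers counted. In cluster 12 the dissociation genes had a median log2 fold of -0.60, and Atf3 (214 against 485 CPM) and Hspa1b were past 2-fold lower. The part of handling in the cluster 12 levels was not tested. Cells with 5 or more cell cycle UMIs were 38.2% of members (34.1 to 42.4) and 34.5% of comparison cells (33.5 to 35.6), with 31.8% (25.7 to 38.4) in cluster 12. The median depth of these cells was 7317 and 6788.5 UMIs in members and comparison cells.

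The members overlapped unequally with 3 other fibroblast groups of the skin, each taken as comparison cells with 3 or more summed UMIs of its genes. Upper dermal cells, chosen by Crabp1, Lef1 and Apcdd1, numbered 1483, and 11 members (2.03%) also met that limit, against 18.5% of the comparison cells. Cells chosen by Pi16 and Clec3b, genes of fascia fibroblasts, numbered 1635, and 86 members (15.9%) met it, 2 of them in cluster 12, against 20.4% of the comparison cells. Cells chosen by Pnoc, Npy and C1qtnf3 numbered 992, and 203 members (37.5%) met it, 24 of them in cluster 12, against 12.4% of the comparison cells. The list of 10 upper dermal genes had 8 of 9 counted genes lower in members and none higher, with a median log2 fold of -1.22. The Pi16 and Clec3b list had 5 of 9 lower, with a median of -0.97, and 8 of 9 lower in cluster 12, where 5.71% of all genes counted were lower and 3.98% higher. Of the genes Pnoc, Npy and C1qtnf3, Npy and C1qtnf3 were higher and Pnoc lower over all members, while in cluster 12 none was higher and Pnoc and Npy were lower. Adipogenic genes had Fabp4 alone lower, and in the dermal papilla list Fgf7, Rspo3 and Bmp7 were lower.

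Of the 3 groups, the one chosen by Pnoc, Npy and C1qtnf3 had the levels of Tnmd, Fmod and Tgfbi nearest to those of all members. Tnmd stood at 84.1 CPM there, 12.9 CPM in upper dermal cells and 11.9 CPM in the Pi16 and Clec3b group, against 532 CPM in members, ratios of 6.33 (5.76 to 6.97), 41.4 (34.3 to 50.4) and 44.9 (37.7 to 53.8). Fmod stood at 108, 15.3 and 28.2 CPM in the same order, and Tgfbi at 322, 55.1 and 97.1 CPM. Ptx4 stayed at 3.77 CPM or less in all 3 groups. Against the Pnoc, Npy and C1qtnf3 group, Chodl and Mgp had ratios of 8.02 and 3.80. Some leading higher genes were nearer, with ratios of 1.65 for Tgfbi, 1.77 for Angptl1, 1.55 for Ssc5d and 1.06 (0.969 to 1.17) for Sfrp4. C1qtnf3, which helped choose that group, had a ratio of 0.754. Some leading lower genes were also nearer there, with ratios of 0.756 for Zeb2, 0.634 for the agouti gene and 0.604 for Robo2. Twist2 was at 228 CPM in the Pnoc, Npy and C1qtnf3 group, 808 CPM in upper dermal cells and 262 CPM in the Pi16 and Clec3b group, all above the 112 CPM of members.

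In the other 17 libraries, which were made from mammary glands, 29119 of 124658 filtered cells lacked Epcam and could meet the rule. Of those, 140 did (0.481%), between 0 and 31 per library, against 6.35% of the 8542 such cells in skin. The E18.5 mammary library prepared alongside gave 2 of 640, and the puberty terminal end buds had only 17 such cells and gave 0. Many such cells lacked Col1a1, unlike in skin. Cells with Col1a1 and a sum under 3 were 436 of the 640 in E18.5 mammary. They were 145 of 1323 in adult FVB/NJ replicate A10 and 23 of 2526 in pregnancy day 12.5 replicate H. The shares of 0.481% and 6.35% are thus of unlike cells, and no share matched on Col1a1 was made. None of the 140 held a Tnmd or Chodl UMI, and none held all 3 rule genes. Scx was the gene found in 87 of them, Cilp in 49 and Thbs4 in 10, and 95 held Krt14, a basal keratin. Adult FVB/NJ replicate A10 gave the 31 cells, of which 24 held Acta2 and 20 Krt14. Over all filtered cells Tnmd stood at 60.4 CPM in the skin library and 0.966 CPM in the E18.5 mammary library. Scx did not separate the libraries, with 22.1 CPM in skin and 25.8 CPM in adult FVB/NJ replicate A10.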

How the data were processed

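Droplet single-cell RNA data of the E18.5 skin library were analysed from the deposited files, which hold raw counts of UMIs per gene and barcode that the authors made with Cell Ranger (3.1.0 per the labels, 3.0.2 per the file header). Gene symbols were read from the authors' deposited feature table, a file with no measured values. The library held 9184 barcodes and a total of 50904927 UMIs. Cells were kept with 500 or more genes and under 20% mitochondrial UMIs, and the study's stated limits left 9026 barcodes. Counts were summed over the cells of a group and scaled to CPM. Genes with a mean of 10 CPM were counted, and 2-fold on CPM + 5 was the limit for a call. No test was run, since 1 library holds both groups. Ratios are of CPM without the added 5 and carry exact conditional binomial 95% intervals, and shares carry exact binomial ones. The fold and its interval were tested on simulated data. Shares at 2000 UMIs per cell are exact hypergeometric expectations. Clusters came from scanpy 1.11.5 and leidenalg 0.10.2 (2000 variable genes, 20 components, 15 neighbours, resolution 0.5). Scrublet called 2 of 9059 barcodes (0.0221%), so it did not work here, and doublets were left in. Named genes were the markers, the genes of 34 lists within their counts, the 20 higher genes with the largest fold detected in at least 25% of members, and the 12 lower genes detected in at least 25% of comparison cells. Genes named by cluster were chosen after their values were seen. Members and lists were chosen with earlier results of these data known, so no list or marker is independent support. Alternatives covered the filters, the limit of the rule, the comparison cells, the scaling (edgeR 4.0.16 TMM), the added CPM and doublet scores. The other 17 libraries were read under the same limits. Values of some genes in these lists are not reported here.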

Additional observations from a re-analysis of the deposited data

How the results depend on the processing

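The members and comparison cells come from 1 library of pooled embryos, so no spread between animals is known and no paired analysis was possible because no group had a second library. The limit of the rule set the number of members, with 323 cells at a sum of 5 or more and 799 at 2 or more. The added CPM and the filter both moved the counts of genes. With 20 CPM added, 66 genes were higher and 63 lower, and the median log2 fold of the tendon list was 0.31. A filter of 50 CPM left 60 higher and 49 lower among 2493 genes. Only the members of cluster 12, an alternative chosen after seeing the data, gave 220 cells, 302 higher and 433 lower genes and a tendon list median of 0.41. The other alternatives kept the counts of genes within 1.5 times, and TMM scaling gave 148 higher and 158 lower. All 32 named genes stayed past 2-fold in the same direction in 352 of 352 values over the 11 alternatives set at the start that gave them. Leaving out the 5% of barcodes with the highest Scrublet scores, also chosen later, left 505 members, 151 higher and 212 lower genes. Placing genes without a UMI in members at 3 counts moved no list's median log2 fold by more than 0.14. Depth limits what a 0 shows: 3 counts in the members are 0.886 CPM.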
